A study of Mus musculus with 9 samples.

Results

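The inhibitor MK1775 was compared directly with the libraries labelled Wee1 siRNA (the siRNA-labelled libraries) by RNA-seq of 4T1, a cell line from a mouse mammary carcinoma. The labels give 3 groups of 3 libraries, all from 4T1 cells at day 2: NC, the negative control; MK1775 treatment, numbered 1 to 3; and Wee1 siRNA, numbered 1# to 3#. MK1775, also called adavosertib, is a small molecule that inhibits the Wee1 kinase, while a small interfering RNA (siRNA) lowers the messenger RNA it is directed at. The labels used here state no dose, no siRNA sequence and no treatment of the NC cells. Nor do they say if 1# to 3# are repeats of 1 siRNA or 3 siRNAs. Levels are FPKM (fragments per kilobase, scaled to the library's mapped fragments), summed over the transcripts that carry the same gene name. Genes entered the comparison when the 6 MK1775 and siRNA-labelled libraries averaged 1 FPKM or more, which kept 10575 of 52325 named genes. Just inside that limit was Nipal1 at 1.00061 FPKM, followed by Homez and Engase, and just outside it Gm13816 at 0.999748 FPKM, followed by Mtcp1 and Flrt3. A difference below is MK1775 minus the siRNA label on the log2(FPKM + 1) scale, so that a positive value is a higher level with MK1775 and changes of low genes are understated.

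Wee1 encodes a kinase of the nucleus that phosphorylates Cdk1 and so holds back entry into mitosis until DNA replication is complete. An inhibitor blocks the activity of the kinase and leaves its messenger RNA in place, whereas an siRNA acts through Ago2 and the RNA-induced silencing complex on the messenger RNA itself. Both lower Wee1 activity when they work, and loss of Wee1 activity is known to cause unscheduled Cdk1 activity, replication stress and early mitosis. Ferroptosis, named in the study's title, is a death of cells that depends on iron and on peroxidation of membrane lipids.

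The Wee1 transcript (chr7:109721253-109742700, GRCm39) was measured first, because it checks the siRNA label. It was at 11.5, 10.5 and 11 FPKM in NC, 14.95, 14.7 and 16.8 with MK1775 and 13.1, 15.1 and 15.3 in the siRNA-labelled libraries. All 6 treated libraries lay above the 3 NC libraries, and the treated groups overlapped each other. The direct difference was 0.089 (95% interval -0.092 to 0.27, adjusted p = 0.864), with an exact two-sided permutation p of 0.6, where 3 libraries against 3 cannot give a p below 0.1. Against NC the difference was 0.46 for MK1775 (adjusted p = 0.00223) and 0.37 for the siRNA label (adjusted p = 0.00624). The messenger RNA named by the siRNA label was thus higher than in NC at day 2, and any direction drawn from that group rests on its label alone. Among 12 tested genes of the RNA interference machinery 0 passed limma's test. Of the 12, 1 had an unadjusted p under 0.05, against 6.13% of all genes. This was Drosha, the nuclease that starts microRNA processing, at 18.3 to 20.1 FPKM with MK1775 and 16.8 to 17.8 FPKM in the siRNA-labelled libraries.

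The 9 libraries had total FPKM of 321551 to 332950, and FPKM carries no read totals, so depth is unknown. Genes at 1 FPKM or more numbered 10390 ± 27.5 with MK1775 and 10610 ± 167 (SD, n = 3 each) with the siRNA label. No pair of libraries held identical values. Separate cultures for the libraries of a group are not stated in the labels, and p-values reflect only the spread between these libraries, which may be technical. Epithelial keratins marked the cells in all groups, with Krt8 at 284 to 295 FPKM with MK1775 and 263 to 270.2 FPKM in the siRNA-labelled libraries. Cdh1, encoding E-cadherin, was at 5.13 to 5.45 FPKM with MK1775 and 5.08 to 5.73 FPKM in the siRNA-labelled libraries, while Epcam was at most 0.573 FPKM in any library. Of the markers of other cells, 4 of 22 immune, 1 of 18 stromal and endothelial and 0 of 12 blood markers reached a mean of 1 FPKM, the highest being Cd14 at a mean of 4.19 FPKM. Adgre1 and Cd3e, which mark macrophages and T cells, were listed at 0 in all 9 libraries. In bulk RNA, fewer cells of a type and less RNA per cell cannot be told apart.

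Few genes differed between MK1775 and the siRNA label beyond the spread of the libraries. Of 10575 genes 1 passed the test, which is 0.00946% of those tested. This was Tmx2, which was higher with MK1775. At an unadjusted p under 0.05 there were 648 genes (6.13%), of which 225 (2.13%) were higher with MK1775 and 423 (4.00%) higher with the siRNA label. The 3 values of a group lay wholly above those of the other for 534 genes (5.05%) in favour of MK1775 and 736 (6.96%) in favour of the siRNA label. The absolute difference had a median of 0.0809 and a 90th percentile of 0.341. It reached 1 in 62 genes.

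Library pairs across the treated groups were about as far apart as pairs within them. The SD over genes of the log2 differences between single libraries was 0.3696 to 0.4259 for an MK1775 library against an siRNA-labelled one. It was 0.3635 to 0.3647 between MK1775 libraries, 0.3839 to 0.4225 between siRNA-labelled libraries, 0.5925 to 0.6226 between MK1775 and NC libraries and 0.6061 to 0.6932 between NC and siRNA-labelled libraries. Precision set what could be seen: the 95% interval of the difference lay within 1 on the log2 scale for 9591 genes (90.7%). It lay within a 1.5-fold change of FPKM + 1 either way for 7893 (74.6%), which in a low gene allows a larger change of FPKM itself. The latter share was 60.6% for genes at 1 to 2 FPKM and 90.3% for those at 50 FPKM and over, so a modest difference in a low gene would often not have been detectable.

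**Figure D1:**
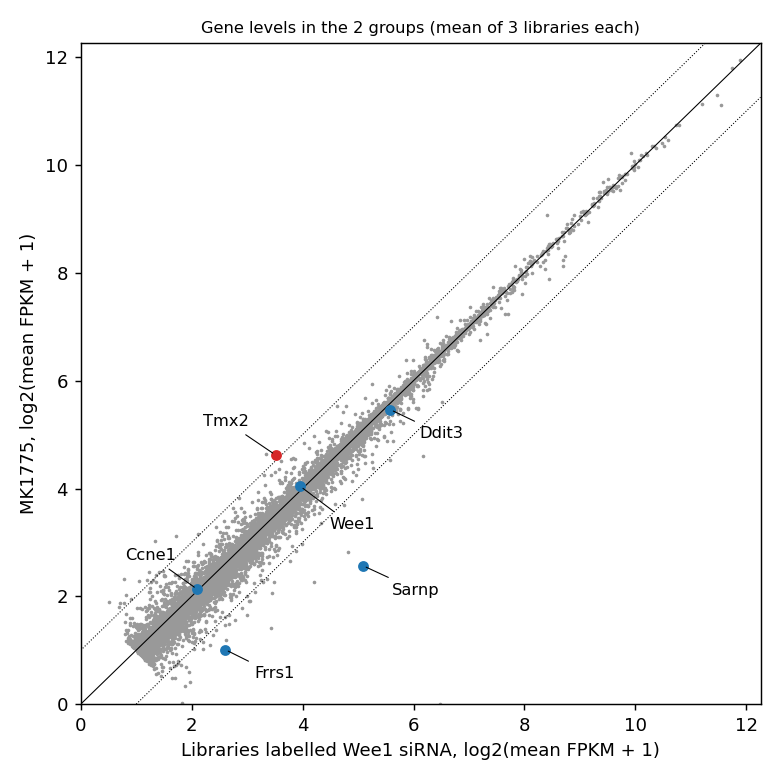
Mean level of each of the 10575 genes in the 3 libraries labelled Wee1 siRNA (x axis) and the 3 MK1775 libraries (y axis), both log2(mean FPKM + 1); the solid line marks equal levels and the dotted lines a difference of 1. Nearly all genes lie along the solid line, with Wee1, Ddit3 and Ccne1 on it, Tmx2 above it and Frrs1 and Sarnp below it.

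Tmx2 encodes a thioredoxin-related transmembrane protein of the endoplasmic reticulum. It lies on the minus strand of chromosome 2, in the same assembled locus as Zdhhc5, a gene for a palmitoyltransferase that attaches fatty acids to proteins. In GRCm39 coordinates the main Tmx2 transcript, of 8 exons and 2095 bases, runs over chr2:84501661-84508518, and the 12-exon Zdhhc5 transcript over chr2:84518314-84545654. A gap of 9795 bases separates them, with Zdhhc5 upstream in the direction of transcription. An assembled transcript without a gene name, of 21 exons and 6357 bases, covered both genes, from the start of Zdhhc5 to past the end of Tmx2 (chr2:84501481-84545654). The spanning transcript begins where the 12-exon Zdhhc5 transcript does, while the main Tmx2 transcript has its own start. For this reason the sequences before the annotated starts of both genes are shown. They are the 250 bases upstream of a RefSeq start on the minus strand in GRCm38.p6, chr2:84678175-84678424 for Tmx2 and chr2:84715165-84715414 for Zdhhc5, printed 5′ to 3′, and all letters are in lower case since no part is singled out.
Tmx2 upstream: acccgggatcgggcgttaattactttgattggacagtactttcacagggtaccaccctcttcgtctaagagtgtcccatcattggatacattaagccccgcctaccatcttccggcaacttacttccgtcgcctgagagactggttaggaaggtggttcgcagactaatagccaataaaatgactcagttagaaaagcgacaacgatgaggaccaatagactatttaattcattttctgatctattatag
Zdhhc5 upstream: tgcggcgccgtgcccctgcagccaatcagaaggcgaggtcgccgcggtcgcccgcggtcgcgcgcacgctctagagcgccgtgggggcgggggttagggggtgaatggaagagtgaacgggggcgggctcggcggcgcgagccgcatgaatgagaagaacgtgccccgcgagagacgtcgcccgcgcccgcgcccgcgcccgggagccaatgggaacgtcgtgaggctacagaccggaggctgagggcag
The start of the main Tmx2 transcript in GENCODE lies 118 bases from the RefSeq start used, and that of Zdhhc5 16 bases. G and C made up 44.4% of the Tmx2 stretch and 73.2% of the Zdhhc5 stretch, with 11 and 39 CG pairs. Of all 32851 RefSeq windows of this length, 35.6% held at least 11 CG pairs and 1.6% at least 39.

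The named transcripts of Tmx2 were at 18.6, 20.8 and 19.1 FPKM in NC, 20.1, 24.9 and 25.8 with MK1775 and 10.4, 10.8 and 10.1 in the siRNA-labelled libraries. The libraries labelled Wee1 siRNA were the low ones, with no overlap with either other group, and MK1775 library 1 lay nearest to NC. The ratio of means, MK1775 over the siRNA label, was 2.26, and the difference was 1.10 (95% interval 0.89 to 1.31, adjusted p = 0.0234), with an SE of 0.092. An exact permutation p over the 6 libraries was 0.1, the smallest that 3 against 3 can give. Against NC, Tmx2 differed by 0.26 for MK1775 against NC and -0.84 for the siRNA label against NC. The call was lost with an adjusted p of 0.157 when only the 6 libraries compared were fitted. Leaving out any library other than MK1775 library 1 ended it as well, with adjusted p of 0.0542 to 0.179 and differences of 1.03 to 1.12.

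The spanning transcript lay on the other side. It was at 0, 0 and 0 FPKM in NC, 3.54, 0.0501 and 0 with MK1775 and 9.43, 8.70 and 8.29 in the siRNA-labelled libraries. It was thus listed at 0 in NC, well above 0 in all siRNA-labelled libraries, and among MK1775 libraries appreciable in library 1 only, which was also the lowest MK1775 library for named Tmx2. Its own difference was -2.54 (95% interval -3.77 to -1.31, adjusted p = 0.397), adjusted over single transcripts. With the spanning transcript added, Tmx2 was at 23.7, 24.9 and 25.8 FPKM with MK1775 and 19.8, 19.5 and 18.4 in the siRNA-labelled libraries. The difference was then 0.35 (95% interval 0.22 to 0.49, adjusted p = 0.303), and the groups still did not overlap. Named Zdhhc5 was at 23.7, 27.6 and 27.1 FPKM with MK1775 and 21.7, 20.4 and 20.8 in the siRNA-labelled libraries, a difference of 0.30 (95% interval 0.16 to 0.44, adjusted p = 0.378). With the spanning transcript added it was -0.12 (95% interval -0.21 to -0.024, adjusted p = 0.716), on the other side of 0. The whole locus, which holds 5 named genes, differed by 0.16 (95% interval -0.095 to 0.42, adjusted p = 0.72). These sums were chosen after the values of Tmx2 had been seen.

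**Figure D2:**
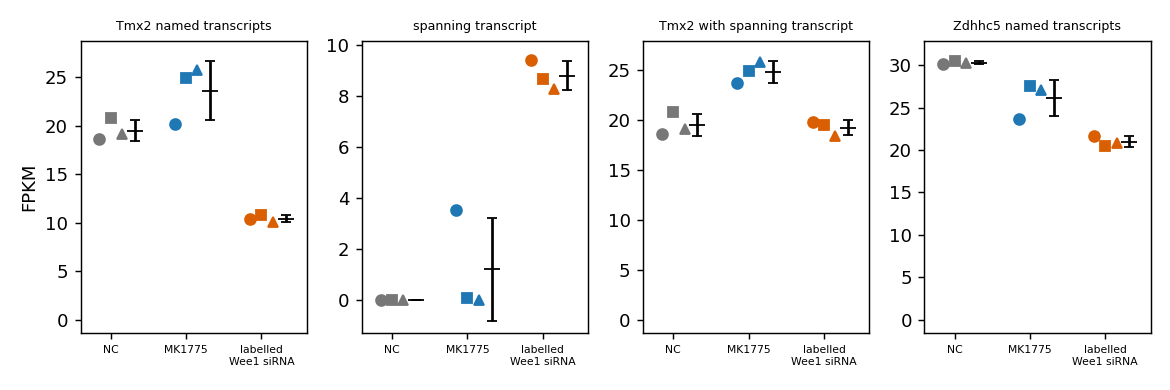
FPKM of Tmx2, of the unnamed transcript spanning Zdhhc5 and Tmx2, of both summed, and of Zdhhc5 in each library (circle, square and triangle for libraries 1, 2 and 3; black bar, mean ± SD, n = 3). Named Tmx2 is lowest, and the spanning transcript highest, in the libraries labelled Wee1 siRNA, and the sum differs less than named Tmx2.

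Tested as single transcripts, 5 of 22766 passed (0.0220%), where 1622 (7.12%) had an unadjusted limma p under 0.05. Of the 5, 3 carried no gene name, out of 7676 such transcripts (0.0391%). Besides the main Tmx2 transcript, the named one was a transcript of H2-K1, a heavy chain of the major histocompatibility complex class I that presents peptides to T cells. This transcript, ENSMUST00000236877, of 2 exons and 705 bases, covers chr17:34218489-34219383. It was at 56.98, 69.1 and 64.9 FPKM in NC, 0.166, 0.837 and 1.20 with MK1775 and 149.8, 141 and 117 in the siRNA-labelled libraries, and so was near 0 with MK1775 and not in the other groups. Its difference was -6.34 (95% interval -6.87 to -5.82, adjusted p = 0.000111). Both 8-exon transcripts that carry the H2-K1 name lay on the opposite side. ENSMUST00000025181 was at 112, 99.2 and 72.8 FPKM with MK1775 and 46.2, 3.42 and 32.6 in the siRNA-labelled libraries, and ENSMUST00000172912 at 26.5, 31.2 and 55.1 FPKM with MK1775 and 8.55, 4.50 and 8.60 in the siRNA-labelled libraries. In both, each MK1775 library was above each siRNA-labelled one. A further 8-exon transcript of the locus, without a gene name and of 1680 bases, was at 1.55, 25.1 and 23.4 FPKM with MK1775 and 0.496, 48.8 and 0.531 in the siRNA-labelled libraries. Its groups overlapped, and it was highest in siRNA-labelled library 2, where ENSMUST00000025181 was lowest. Summed over its named transcripts, H2-K1 was at 109.6, 82.5 and 100.4 FPKM in NC, 170.2, 139.5 and 140.4 with MK1775 and 239.6, 165 and 192 in the siRNA-labelled libraries. The sums overlapped between the treated groups, and the difference was -0.39 (95% interval -0.75 to -0.033, adjusted p = 0.798) and -0.44 with unnamed transcripts, so that the gene and its 2-exon transcript gave differences of very unequal size.

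**Figure D3:**
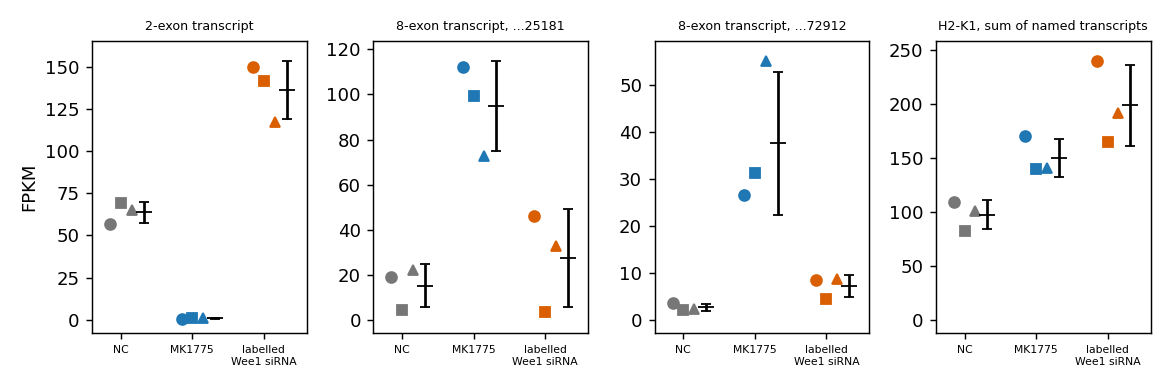
FPKM of 3 H2-K1 transcripts and of the sum of all named H2-K1 transcripts in each library (circle, square and triangle for libraries 1, 2 and 3; black bar, mean ± SD, n = 3). The 2-exon transcript is near 0 with MK1775 and both 8-exon transcripts shown are higher there, while the sums of the treated groups overlap.

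The 3 unnamed transcripts that passed overlapped loci with known genes. A 23-exon transcript in the locus of Aars, the alanyl-tRNA synthetase gene (chr8:111760511-111784472), was at 0, 0.11 and 0.117 FPKM in NC, 0.265, 0.397 and 0.194 with MK1775 and 12.2, 11.7 and 7.76 in the siRNA-labelled libraries. It was called higher with the siRNA label, with a difference of -3.15 (95% interval -3.58 to -2.72, adjusted p = 0.00251). The named Aars transcript ENSMUST00000034441 was at 54.2, 74.1 and 70.7 FPKM with MK1775 and 60.5, 28.6 and 67.0 in the siRNA-labelled libraries, with overlap. A 6-exon transcript in the locus of Ubl5, a ubiquitin-like protein gene (chr9:20553720-20558436), was at 0.351, 0 and 0.0286 FPKM in NC, 7.62, 10.6 and 10.4 with MK1775 and 0.303, 0.246 and 0.693 in the siRNA-labelled libraries. It was the only one of the 3 on the side of MK1775, with a difference of 2.90 (95% interval 2.42 to 3.37, adjusted p = 0.00659). In the locus of Tmed5, which encodes a cargo receptor of the early secretory pathway, the transcript that passed was 1 of a pair of unnamed 5-exon transcripts with the same start, end and length of 3774 bases (chr5:108269493-108280486). It was listed at 0 in all NC and MK1775 libraries and at 5.72, 18.7 and 11.6 FPKM in the siRNA-labelled libraries, with an adjusted p of 0.0391. The other transcript of the pair was at 20.4, 15.4 and 13.3 FPKM in NC, 26.5, 19.9 and 28.7 with MK1775 and 14.5, 9.87 and 22.01 in the siRNA-labelled libraries. It was lower on average with the siRNA label than with MK1775, with overlap, so the pair lay on opposite sides. Over whole assembled loci, with named and unnamed transcripts summed, 0 of 12925 passed in limma at an adjusted p under 0.05 (1187, or 9.18%, had an unadjusted p under 0.05). The loci of Aars, Ubl5 and Tmed5 were among those that did not pass, so the calls above are of single transcripts. The locus of Slc27a1, a fatty acid transport protein gene, had the smallest p and was at 12.9, 13.4 and 12.9 FPKM in NC, 12.7, 12.9 and 12.8 with MK1775 and 16.4, 17.6 and 17.3 in the siRNA-labelled libraries. There the siRNA-labelled libraries were the high ones and MK1775 was near NC, and the difference was -0.39 (95% interval -0.49 to -0.29, adjusted p = 0.0909).

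The next genes by p did not pass, and they are named here because of their values. In some of them the difference depended on which transcripts carried the gene name. Among the 50 genes with the smallest p, 37 were higher with the siRNA label, and 38 were the only named gene of their locus. Adding the unnamed transcripts of the locus brought 14 of these 38 to an unadjusted limma p of 0.05 or more. Dyrk1a, which encodes a dual-specificity kinase, was at 0.843, 0.665 and 0.387 FPKM with MK1775 and 2.25, 2.51 and 1.87 in the siRNA-labelled libraries. Its difference was -0.98, and 0.047 with the unnamed transcripts. Socs7, of the suppressor of cytokine signalling family, was -1.14 as named and 0.074 with unnamed transcripts, and Taf11, a subunit of the general transcription factor TFIID, 0.64 and 0.013. Frrs1, encoding a ferric chelate reductase, was at 0.0165, 0.13 and 1.07 FPKM in NC, 1.16, 0.937 and 0.968 with MK1775 and 5.18, 5.22 and 4.81 in the siRNA-labelled libraries. Its difference was -1.59 (95% interval -2.14 to -1.04, adjusted p = 0.326) as named and -0.28 with unnamed transcripts, and it passed when only the 6 libraries were fitted (adjusted p = 0.0158) or NC library 3 was left out (adjusted p = 0.00442). Frrs1 and Sarnp were the 2 genes whose interval lay wholly beyond 1. Sarnp, a nuclear RNA-binding protein of messenger RNA export, was at 55.3, 39.3 and 50.1 FPKM in NC, 7.37, 3.64 and 3.80 with MK1775 and 11.9, 38.7 and 48.4 in the siRNA-labelled libraries. The siRNA-labelled libraries ranged widely, the difference was -2.36 (95% interval -3.47 to -1.26, adjusted p = 0.378), and the whole locus, which holds another named gene, differed by -0.72. Eif3c, a subunit of the initiation factor eIF3, was at 87.3, 31.1 and 23.5 FPKM with MK1775 and 90.2, 88.97 and 91.3 in the siRNA-labelled libraries. MK1775 library 1 stood with the siRNA-labelled libraries and the other MK1775 libraries below them; the difference of -1.15 (95% interval -2.08 to -0.22, adjusted p = 0.728) became -1.70 (adjusted p = 0.0161) without that library, and was -0.016 with unnamed transcripts.

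The other 24 of the 38 stayed at an unadjusted limma p under 0.05 when unnamed transcripts were added, and over whole loci 32 of the 50 did. These counts include genes such as Dnajc19 and Nqo1, whose sums held nothing more when unnamed transcripts were added. Such genes could not have moved, and how many there were was not counted. Dnajc19, a cochaperone gene of the mitochondrial inner membrane, was at 32.2, 33.4 and 25.4 FPKM in NC, 18.3, 20.2 and 17.97 with MK1775 and 29.7, 28.5 and 28.4 in the siRNA-labelled libraries. The MK1775 libraries were the low ones, with a difference of -0.60 (95% interval -0.83 to -0.37, adjusted p = 0.326). Id2, an inhibitor of basic helix-loop-helix transcription factors, was at 14.5, 13.99 and 14.04 FPKM in NC, 26.4, 25.5 and 24.5 with MK1775 and 30.9, 33.5 and 30.7 in the siRNA-labelled libraries. It stood above NC in both treated groups and further above with the siRNA label, with a direct difference of -0.30 (95% interval -0.42 to -0.19, adjusted p = 0.326). Nqo1, an Nrf2 target encoding a quinone reductase, was at 8.76, 10.8 and 9.90 FPKM in NC, 11.4, 11.3 and 10.5 with MK1775 and 14.6, 14.7 and 13.98 in the siRNA-labelled libraries. All 3 siRNA-labelled values lay above all 3 of MK1775, and the difference was -0.35 (95% interval -0.53 to -0.18, adjusted p = 0.479). Adding unnamed transcripts gave -0.31 for Id2. For Dnajc19 (-0.60) and Nqo1 (-0.35) the sums were the same with and without them, so that step could not test these 2 genes.

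Of 853 tested genes on 37 lists of pathways and cell types, 0 passed limma's test in either direction, and 64 (7.5%) had an unadjusted p under 0.05, against 6.13% of all genes. Of these, 30 were higher with MK1775 and 34 with the siRNA label. Of the 34 lists with at least 5 tested genes, 32 had a median difference within 0.1 of 0, against -0.014 over all genes tested. The exceptions were the cleavage-stage embryo genes at -0.37 and the mitochondrially encoded genes at -0.12. Values against NC are given beside the direct ones for description only, since both use the same 3 NC libraries.

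**Figure D4:**
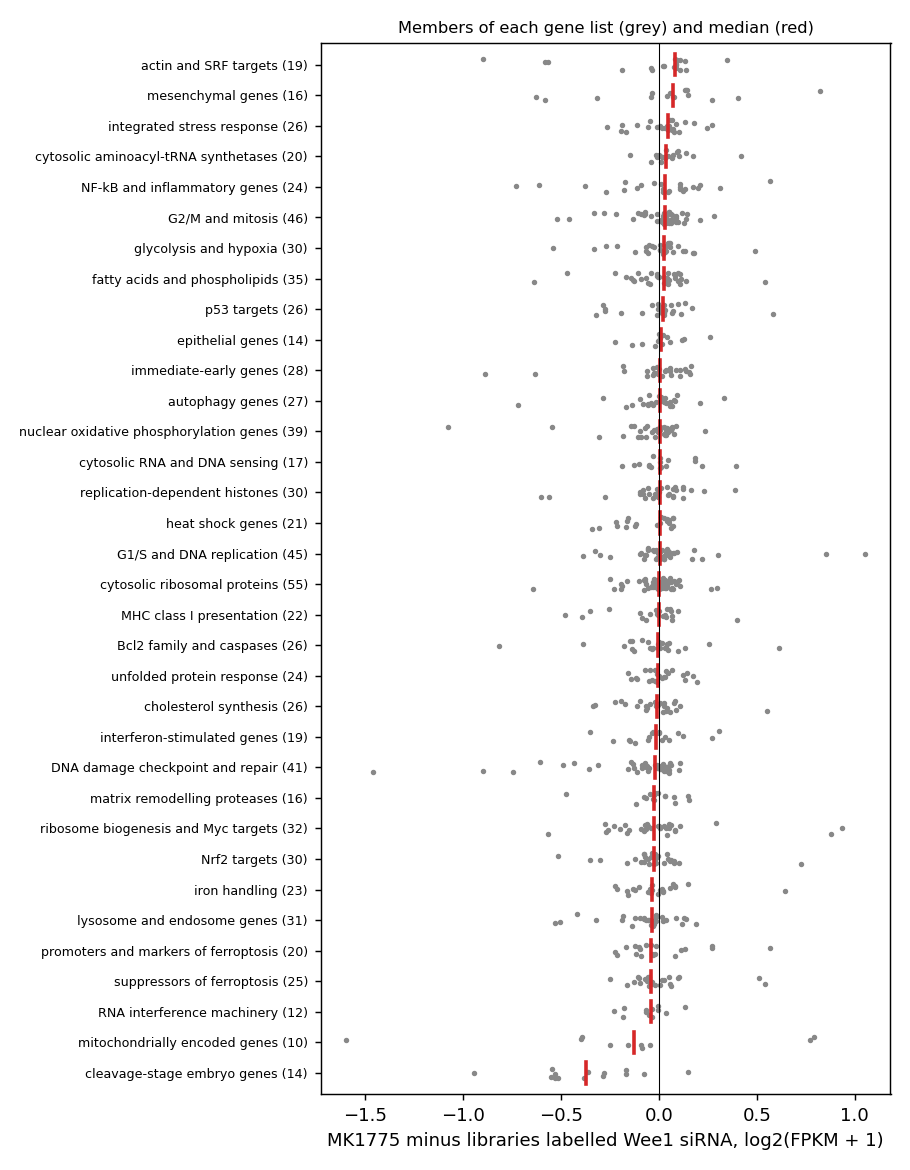
Direct difference, MK1775 minus the libraries labelled Wee1 siRNA in log2(FPKM + 1), for each tested gene of the 34 lists with at least 5 tested genes (grey points, number in brackets; red line, list median). Medians lie near 0 except for the cleavage-stage embryo genes at -0.37 and, less far, the mitochondrially encoded genes.

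Among the partners of Wee1, Cdk1, its substrate kinase, was at 41.4, 41.97 and 41.3 FPKM in NC, 47.3, 48.3 and 46.4 with MK1775 and 43.9, 43.4 and 44.999 in the siRNA-labelled libraries. The MK1775 libraries were all above the others by a small margin, with a difference of 0.10 (95% interval 0.017 to 0.18, adjusted p = 0.741). Ccnb1, the cyclin B1 that activates Cdk1 at mitotic entry, was at 121 to 125 FPKM with MK1775 and 113 to 127 FPKM in the siRNA-labelled libraries, a difference of 0.056 (95% interval -0.06 to 0.17, adjusted p = 0.867). Pkmyt1, encoding the other kinase that inhibits Cdk1, differed by 0.039 (95% interval -0.10 to 0.18, adjusted p = 0.917). Of 46 tested genes of G2/M and mitosis 2 had an unadjusted p under 0.05, against 6.13% of all genes: Cdk1 and the ubiquitin-conjugating enzyme gene Ube2c. The list median was 0.033, with medians against NC of 0.39 and 0.31 for MK1775 and the siRNA label. Of 45 tested genes of G1/S and DNA replication 4 had one, against the same 6.13%. All 4 were higher with MK1775, where 2.13% of all genes had one in that direction. That list's median was 0.0041 (-0.36 and -0.41 against NC). With unnamed transcripts added, Cdk6 went from 1.05 to 0.036 and Mcm2 from 0.85 to 0.077. Gins4 and Ccnd2, at 0.30 and 0.18, had the same values either way, so that step could not test them. Ccne1, the cyclin E1 of S phase entry, was at 11.8, 13.3 and 12.4 FPKM in NC, 3.40, 3.92 and 2.83 with MK1775 and 3.28, 2.93 and 3.67 in the siRNA-labelled libraries. Both treated groups stood well below NC and overlapped, with a direct difference of 0.026 (95% interval -0.23 to 0.28, adjusted p = 0.973). Ccnd2, a D-type cyclin, was at 16.7 to 18.1 FPKM with MK1775 and 14.8 to 15.9 FPKM in the siRNA-labelled libraries, a difference of 0.18 (95% interval 0.067 to 0.30, adjusted p = 0.598).

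Targets of p53 came next. Cdkn1a, which encodes the CDK inhibitor p21, was at 4.37, 4.74 and 4.36 FPKM in NC, 29.8, 30.5 and 29.2 with MK1775 and 29.4, 26.8 and 26.5 in the siRNA-labelled libraries. Both treated groups were high and overlapped, and the direct difference was 0.11 (95% interval -0.02 to 0.24, adjusted p = 0.831), beside 2.49 for MK1775 against NC and 2.38 for the siRNA label against NC. Over 26 tested p53 targets the median was 0.02. An unadjusted p under 0.05 was found for 4 of them, 2 in each direction, against 6.13% of all genes. Ei24, a p53-induced gene of the endoplasmic reticulum, was 0.58 (95% interval 0.21 to 0.95) as named and 0.036 with unnamed transcripts. Phlda3, an inhibitor of Akt signalling, was at 6.65 to 7.28 FPKM with MK1775 and 8.09 to 9.03 FPKM in the siRNA-labelled libraries, a difference of -0.28 (95% interval -0.44 to -0.11, adjusted p = 0.556). For 41 tested checkpoint and repair genes the median was -0.017.

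The integrated stress response raises translation of Atf4, which turns on genes of amino acid supply and, through Ddit3 (CHOP), of cell death. Atf4 was at 94.6, 106 and 98.7 FPKM in NC, 193, 200.02 and 188 with MK1775 and 192, 182 and 189 in the siRNA-labelled libraries, and Ddit3 at 3.23, 4.04 and 3.56 FPKM in NC, 44.7, 41.1 and 43.6 with MK1775 and 43.4, 49.5 and 47.4 in the siRNA-labelled libraries. Both were high in all treated libraries, with overlap between the treated groups. Their direct differences were 0.045 (95% interval -0.069 to 0.16, adjusted p = 0.883) and -0.11 (95% interval -0.29 to 0.07, adjusted p = 0.861), beside 3.26 for MK1775 against NC and 3.37 for the siRNA label against NC for Ddit3. Chac1, a glutathione-degrading enzyme gene downstream of Atf4, was at 8.11, 9.78 and 8.81 FPKM in NC, 22.3, 22.7 and 23.5 with MK1775 and 19.4, 18.3 and 18.6 in the siRNA-labelled libraries. The MK1775 libraries were all above the siRNA-labelled ones, with a difference of 0.27 (95% interval 0.11 to 0.42, adjusted p = 0.539). Ppp1r15a, the phosphatase subunit that ends the response, was at 16.6 to 17.4 FPKM with MK1775 and 18.3 to 20.005 FPKM in the siRNA-labelled libraries, a difference of -0.17 (95% interval -0.30 to -0.028, adjusted p = 0.742). Over the list, 26 of 30 genes were tested, and the median was 0.048 directly and 0.68 and 0.68 against NC. Of the 26, 3 had an unadjusted p under 0.05, 2 higher with MK1775 and 1 with the siRNA label, against 6.13% of all genes. The unfolded protein response had a median of -0.0023 over 24 genes, and Hspa5, the main chaperone of the endoplasmic reticulum, was at 711 to 729 FPKM with MK1775 and 649 to 665 FPKM in the siRNA-labelled libraries.

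Ferroptosis is held back by Gpx4, which reduces lipid peroxides, and is fed by Acsl4, which loads polyunsaturated fatty acids into phospholipids, and by iron taken up through Tfrc. Gpx4 was at 135, 153 and 147 FPKM in NC, 141, 147 and 154 with MK1775 and 150.4, 161 and 148 in the siRNA-labelled libraries. Values overlapped in all groups, and the difference was -0.053 (95% interval -0.19 to 0.086, adjusted p = 0.886). Acsl4 differed by -0.17 (95% interval -0.63 to 0.30, adjusted p = 0.889) and Tfrc by -0.22 (95% interval -0.94 to 0.49, adjusted p = 0.907), the latter with the wider interval. Hmox1, the heme oxygenase that frees iron, was at 11.02 to 11.7 FPKM with MK1775 and 12.3 to 12.4 FPKM in the siRNA-labelled libraries, a difference of -0.12 (95% interval -0.28 to 0.036, adjusted p = 0.846). Fth1, the ferritin heavy chain that stores iron, was at 1233 to 1342 FPKM with MK1775 and 1258 to 1596 FPKM in the siRNA-labelled libraries, a difference of -0.16 (95% interval -0.37 to 0.046, adjusted p = 0.846). Ptgs2, a common marker of ferroptosis, differed by -0.091 (95% interval -0.43 to 0.25, adjusted p = 0.922). List medians were -0.038 over 25 suppressors, -0.038 over 20 promoters and markers, -0.036 over 23 iron genes and -0.025 over 30 Nrf2 targets. At an unadjusted p under 0.05 there were 0, 2, 0 and 3 genes of these lists, against 6.13% of all genes. Among them, Vdac2 was 0.57 as named and -0.015 with unnamed transcripts, and Abcc1 -0.52 and -0.089. The others, Chac1, Nqo1 and Gstm1 (0.73), had the same values either way.

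Inflammatory genes of the NF-kB list held more small differences, with 8 of 24 tested genes at an unadjusted p under 0.05 against 6.13% of all genes, and a median of 0.034. Ccl5, a chemokine that draws T cells, was at 2.77, 2.66 and 3.02 FPKM in NC, 2.31, 2.65 and 2.02 with MK1775 and 1.39, 1.54 and 0.864 in the siRNA-labelled libraries. The siRNA-labelled libraries were the low ones, with a difference of 0.56 (95% interval 0.26 to 0.87, adjusted p = 0.479). Vcam1, an adhesion molecule for leukocytes, was at 9.85 to 10.4 FPKM with MK1775 and 8.22 to 8.97 FPKM in the siRNA-labelled libraries, a difference of 0.20 (95% interval 0.077 to 0.32, adjusted p = 0.598). Nfkbia, the inhibitor that NF-kB itself turns on, was on the other side at 31.3 to 32.7 FPKM with MK1775 and 35.3 to 37.6 FPKM in the siRNA-labelled libraries, a difference of -0.18 (95% interval -0.29 to -0.065, adjusted p = 0.598). Tnfaip3, the A20 deubiquitinase that ends NF-kB signalling, was -0.73 as named and -0.088 with unnamed transcripts. Of the 8 genes 3 were higher with MK1775 and 5 with the siRNA label. Interferon-stimulated genes (19 tested) had a median of -0.016, and genes that sense RNA and DNA in the cytosol (17 tested), among them the sensors that respond to transfected RNA, a median of 0.0063. Cxcl10, an interferon-induced chemokine, was at 0.312, 0.305 and 0.338 FPKM in NC, 2.26, 2.72 and 2.53 with MK1775 and 1.79, 2.01 and 1.90 in the siRNA-labelled libraries, a difference of 0.27 (95% interval 0.088 to 0.45, adjusted p = 0.617). Oas1a, which makes the activator of RNase L on double-stranded RNA, was at 1.88 to 2.24 FPKM with MK1775 and 1.46 to 1.80 FPKM in the siRNA-labelled libraries. Il11, a cytokine of the Il6 family, was at 0.32, 0.53 and 0.504 FPKM in NC, 32.8, 33.96 and 33.8 with MK1775 and 34.8, 30.6 and 33.7 in the siRNA-labelled libraries. It was high in all treated libraries with overlapping values, with a difference of 0.022 (95% interval -0.15 to 0.20, adjusted p = 0.968).

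The replication-dependent histone genes, which are normally switched on in S phase, had a median of 0.0046 over 30 tested genes of 53 listed, beside 2.04 and 1.98 against NC. None passed in the direct comparison. An unadjusted p under 0.05 was found for 2, H4c11 and H2ac6, both higher with the siRNA label, against 6.13% of all genes. H4c11 was at 0.132, 0.119 and 0.043 FPKM in NC, 3.98, 3.25 and 3.89 with MK1775 and 4.50, 4.55 and 4.98 in the siRNA-labelled libraries, a difference of -0.27 (95% interval -0.48 to -0.071, adjusted p = 0.665). Histone genes are near-identical copies, so reads can be shared among them.

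Genes of the cleavage-stage embryo are normally silent in somatic cells and mark the embryo around activation of its genome. Of 33 listed genes 30 were in the table and 14 were tested; the others were below 1 FPKM on average. Tcstv1 was at 0.024, 0 and 0 FPKM in NC, 15.6, 16.1 and 13.3 with MK1775 and 20.7, 20.9 and 24.7 in the siRNA-labelled libraries. Eif4a3l1, a relative of the RNA helicase eIF4A3, was at 0, 0.0363 and 0 FPKM in NC, 32.9, 28.2 and 27.5 with MK1775 and 36.7, 35.96 and 35.7 in the siRNA-labelled libraries. In both, NC was at or near 0 and each siRNA-labelled library was above each MK1775 library. The direct differences were -0.53 (95% interval -0.75 to -0.31, adjusted p = 0.336) and -0.29 (95% interval -0.45 to -0.12, adjusted p = 0.54). Zfp352, a zinc finger gene of the early embryo, was at 8.40 to 10.6 FPKM with MK1775 and 11 to 13.6 FPKM in the siRNA-labelled libraries, and Eif1ad3 at 1.34 to 2.54 FPKM with MK1775 and 2.75 to 3.61 FPKM in the siRNA-labelled libraries, with differences of -0.36 (95% interval -0.59 to -0.12, adjusted p = 0.598) and -0.54 (95% interval -0.89 to -0.19, adjusted p = 0.598). Of the 14 genes 13 were higher with the siRNA label, against 54.9% of all genes. The filter bears on this count: Kdm4dl, Obox3 and Usp17lc averaged under 1 FPKM with MK1775 and entered only through the siRNA-labelled libraries. Of the 11 genes at 1 FPKM or more in both groups 10 were higher with the siRNA label, against 54.5% of the 10306 such genes, with a median of -0.36. With no filter it was 21 of 28 listed genes, against 56.1% of 27997 genes, and the median was -0.13, against -0.0075. Of the 14, 8 had groups that did not overlap in that direction, against 6.96% of all genes. Obox3, which entered only through the siRNA-labelled libraries, was among the 8. None passed the test, and 6 had an unadjusted p under 0.05, against 4.00% in that direction over all genes. Kdm4dl, Obox3 and Usp17lc were not among these 6. The list median of -0.37 stood beside 1.99 and 2.22 against NC, so the direct difference was small against the distance of both groups from NC. The exception in direction was Eif4a3l2, at 16.9, 0 and 12.5 FPKM with MK1775 and 0, 7.22 and 20.6 in the siRNA-labelled libraries. With the unnamed transcripts of its locus it was at 17.6, 14.8 and 15.5 FPKM with MK1775 and 19.9, 20.9 and 20.9 in the siRNA-labelled libraries, a difference of -0.35, so that the values of 0 and the exception were both gone. Kdm4dl was the gene that was highest in NC. Several of these genes (the Usp17l, Eif1ad and Tcstv genes) are multicopy, and how reads were split between copies is uncertain.

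The median over the cleavage-stage genes that passed the filter stayed below 0 without any single library. It ran from -0.4871 without MK1775 library 1 to -0.2948 without siRNA-labelled library 3, and was -0.332 under median-of-ratios scaling. More widely, 146 of the genes tested had a mean below 0.1 FPKM in NC, and 110 of them (75.3%) were higher on average with the siRNA label. Of the 146, 15 reached the filter through the siRNA-labelled libraries alone and 2 through MK1775 alone; of the 129 at 1 FPKM or more in both groups 95 (73.6%) were higher with the siRNA label. In 43 of the 146 (29.5%) the groups did not overlap in that direction, against 6.96% over all genes, and in 2 they did not overlap in the other. The 15 genes that entered through the siRNA-labelled libraries alone were kept in these counts. The median difference of the 146 was -0.21, against -0.013 for the other 10429 genes, and it was -0.17 over the 129. None of the 146 passed the test, and 49 had an unadjusted limma p under 0.05, against 6.13% of all genes. Pramel24, of the Prame-like multicopy family, was an example, listed at 0 in NC and at 5.30 to 5.81 FPKM with MK1775 and 7.49 to 8.34 FPKM in the siRNA-labelled libraries, a difference of -0.44 (95% interval -0.59 to -0.28, adjusted p = 0.326). Tdpoz8, of another multicopy family, was at 2.80 to 3.54 FPKM with MK1775 and 4.56 to 5.17 FPKM in the siRNA-labelled libraries. The number of genes detected at 1 FPKM was also higher in the siRNA-labelled libraries, as given above, and its part in these differences was not tested.

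**Figure D5:**
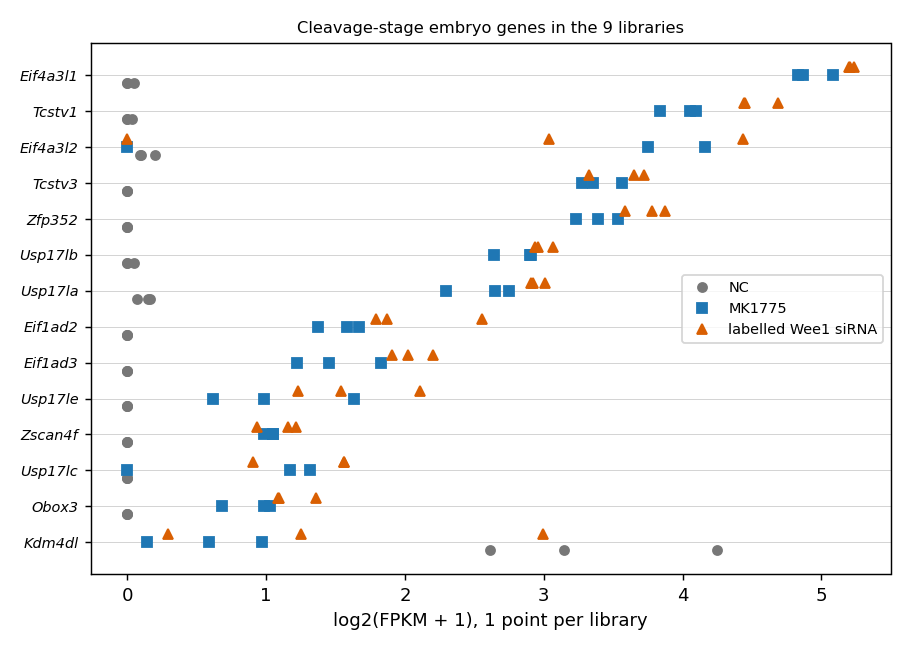
Levels of the 14 tested cleavage-stage embryo genes, log2(FPKM + 1), in the 3 NC (grey circles), 3 MK1775 (blue squares) and 3 siRNA-labelled libraries (orange triangles). All genes but Kdm4dl sit near 0 in NC, and in most the triangles lie to the right of the squares.

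Mitochondrially encoded genes, subunits of the respiratory chain, had a median of -0.12 over 10 tested genes, with differences from -1.59 to 0.79. Of the 10, 8 were higher on average with the siRNA label, against 54.9% of all genes, and 2 with MK1775. mt-Co2, a subunit of cytochrome c oxidase, was at 45.8, 27.3 and 40.2 FPKM in NC, 46.3, 52.3 and 44.1 with MK1775 and 59.1, 65.4 and 64.001 in the siRNA-labelled libraries, a difference of -0.40 (95% interval -0.78 to -0.0074, adjusted p = 0.808). mt-Cytb, of complex III, was at 2094 to 2319 FPKM with MK1775 and 2085 to 3726 FPKM in the siRNA-labelled libraries, with overlap. On the other side, mt-Nd2 averaged 143 FPKM with MK1775 and 84.5 FPKM in the siRNA-labelled libraries, without overlap. Its difference was 0.77 (95% interval -0.81 to 2.35, adjusted p = 0.866). Mitochondrial transcripts made up 2.225 ± 0.0947% of total FPKM with MK1775 and 2.612 ± 0.526% (SD, n = 3 each) with the siRNA label, with an exact permutation p of 0.4. By library the share was 2.294, 2.264 and 2.117% with MK1775 and 2.033, 2.743 and 3.061% with the siRNA label. Library 1 of the siRNA label thus lay below all MK1775 libraries. Nuclear genes of oxidative phosphorylation had a median of 0.007 over 39 genes and cytosolic ribosomal proteins one of 0.0028 over 55.

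Genes of metabolism and the matrix were also compared. Txnip, a glucose-responsive inhibitor of thioredoxin, was at 16.1, 17.4 and 17.1 FPKM in NC, 168, 172 and 172 with MK1775 and 158, 144 and 152 in the siRNA-labelled libraries. It was high in both treated groups, slightly more with MK1775, with a difference of 0.17 (95% interval 0.064 to 0.28, adjusted p = 0.598). Pdk1, which restrains entry of pyruvate into mitochondria, was -0.54 as named and 0.07 with unnamed transcripts, and Chka, the choline kinase of phosphatidylcholine synthesis, -0.47 and -0.061. Plin2, a coat protein of lipid droplets, was -0.64 as named and -0.033 with them. Cholesterol synthesis had a median of -0.0068 over 26 genes, with none at an unadjusted p under 0.05. Sparc, a secreted matrix protein, was at 111, 128 and 123 FPKM in NC, 93.1, 92.98 and 98.9 with MK1775 and 82.4, 79.8 and 73.4 in the siRNA-labelled libraries. The siRNA-labelled libraries were the lowest, with a difference of 0.27 (95% interval 0.12 to 0.42, adjusted p = 0.51). Mmp3, a matrix metalloproteinase, was at 99.4, 108 and 113 FPKM in NC, 26.6, 27.96 and 29.02 with MK1775 and 30.9, 28.1 and 28.5 in the siRNA-labelled libraries. It was low in all treated libraries, which overlapped, and differed by -0.065 (95% interval -0.21 to 0.079, adjusted p = 0.874) directly.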

How the data were processed

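RNA-seq of 9 libraries of 4T1 cells (NC, MK1775 and Wee1 siRNA, 3 each, day 2) was used as deposited. Per the submitters' processing notes FastQC, Trim Galore, HISAT2 and StringTie were used with GRCm39; their versions, the use of strand and any poly(A) selection are not given. The authors deposited FPKM values per transcript and library for 158719 transcripts, 17991 of them assembled ones without a gene name. Whole reads were looked for as common steps in FPKM times length: at best 20.6% to 21.1% of low values per library lay within 0.1 of one, where evenly spread values give 20%, so no reads could be recovered and depth is unknown.

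FPKM was summed by gene name, leaving out unnamed transcripts, and genes averaging 1 FPKM or more in the 6 libraries compared were tested on log2(FPKM + 1), a pseudocount of 1. All 9 libraries entered a single limma fit (lmFit, contrasts.fit and eBayes with trend, limma 3.58.1, R 4.3.3, data.table in version 1.17.8) of 3 group means, with the two-sided contrast MK1775 minus Wee1 siRNA, Benjamini-Hochberg adjustment over all genes tested and a threshold of 0.05. Intervals are 95% intervals of that fit. Values with ± are mean and SD over 3 libraries. Figures were drawn with matplotlib 3.10.9. The fit was tested on simulated data.

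Genes were named by a rule: Wee1; the largest called differences; for each of 37 lists (1160 entries, written from textbook knowledge) up to 4 members with the smallest adjusted p; and 15 fixed genes. Others were chosen after their values were seen. The genes, lists and tests were all chosen with earlier results of these data known. Coordinates were taken as deposited (GRCm39); the reference at hand was GRCm38 and gave only the RefSeq sequences. Alternatives were pseudocounts, filters, scalings, the replicate number as a block, the 6 libraries alone, eBayes without trend, array weights, other transcript sums, a log2 limit of 1 on top, and omission of each library. Sums over whole loci, single transcripts and the sum of Tmx2 with its spanning transcript were chosen after seeing the data.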

Additional observations from a re-analysis of the deposited data

Results flagged for a closer look

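The effects of MK1775 and of the siRNA label against NC differed for Tmx2, at 0.26 and -0.84, and limma's test of that difference itself gave 1.10 (adjusted p = 0.0234).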

How the results depend on the processing

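Of 27 alternatives for the count of genes that passed, 12 stayed at 1, among them both other pseudocounts, a minimum mean of 5 FPKM and 2 of the 3 scalings. The count was 11 of 27997 without an expression filter, 2 with quantile normalization (Tmx2 and Frrs1), 2 with the most abundant transcript (Tmx2 and H2-K1), 0 over whole loci and 5 over single transcripts. The 12 that stayed at 1 include the fit of only the 6 libraries compared, where the gene was Frrs1 (adjusted p = 0.0158) and not Tmx2. They also include the fit without NC library 3, again with Frrs1 (adjusted p = 0.00442) and not Tmx2. Leaving out each library gave 0 to 3; the 3 arose without MK1775 library 1, with Eif3c and Gadd45gip1 beside Tmx2. Tmx2 kept its direction in all 27 alternatives and its call in 14. Some of the 14 could not alter its value. Unnamed transcripts were added only in loci with a single named gene, and the locus of Tmx2 holds 5. The log2 limit of 1 and the omission of names on several chromosomes left Tmx2 as it was. Its difference was 1.10 with only the 6 libraries (adjusted p = 0.157), 0.35 with the spanning transcript (adjusted p = 0.303) and 0.16 over the whole locus (adjusted p = 0.72), and 1.03 to 1.20 without single libraries. The Wee1 difference stayed at 0.022 to 0.13 and passed under none of 25. Of 925 list counts under alternatives 924 stayed at 0, and the other was H2-K1 under the most abundant transcript. A changed sign of a value that passed in neither setting was not counted as a reversal.

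Libraries with the same number did not deviate together: correlations of deviations were -0.113 to -0.022 for same-numbered MK1775 and siRNA-labelled libraries and -0.0483 to 0.0981 for others, so the numbers were not used as pairs. With a replicate block 0 genes passed (585 had an unadjusted limma p under 0.05) and the Tmx2 difference was 1.10 (adjusted p = 0.109). With a replicate block and only the 6 libraries 0 passed (515 unadjusted), with Tmx2 at 1.10 (adjusted p = 0.922). Depth is unknown, and 3 libraries a group limit the precision most for low genes.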
